A study of Homo sapiens with 3 samples.

Results

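RNA-seq read counts of 9 genes of the plasminogen activation system and its serpins were examined in T24 cells, a human bladder carcinoma line, among the 58381 genes of the count table. They are the activators PLAU and PLAT, the urokinase receptor PLAUR, the plasminogen receptor subunits ANXA2 and S100A10, and the serpins SERPINE2, SERPINB2, SERPINB5 and SERPINB6. The members were chosen by gene name with earlier ratios between these libraries already known, so their levels and ratios are given as a description and nothing is tested. Each of the 9 names matched 1 gene of the table.

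There were 3 groups with 1 library each. Ctrl was T24 left unirradiated, RT was T24 irradiated with 10 Gy, and RT + shHDAC6 was T24 with the HDAC6 shRNA, irradiated with the same dose. The labels and the study's methods describe lentiviral infection and puromycin selection for the shRNA and a pLKO.1 control vector. The paper's text calls the cells of RT parental and those of Ctrl untreated, so whether these libraries carry the vector cannot be settled here. The knockdown rests on 1 shRNA sequence in 1 cell line, and unirradiated cells with the shRNA were not analysed here. RT + shHDAC6 over RT is therefore read in irradiated cells only, and RT + shHDAC6 over Ctrl combines both changes.

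Plasmin is a broad protease made from plasminogen by 2 activators, urokinase (encoded by PLAU) and tissue-type plasminogen activator (PLAT). Urokinase is held at the cell surface by its receptor, and the complex of annexin A2 with S100A10 binds plasminogen there, so that plasmin forms next to the matrix. Serpins are inhibitors that trap the activators, plasmin or other proteases. The system is known in urothelial carcinoma for its links with invasion.

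The libraries held between 35424086 and 41811165 counts on 28616 to 31034 genes, and Ctrl was the largest. Values below are read counts, or CPM (read counts relative to library size) after scaling by TMM, a factor for each library taken from the bulk of the genes. Ratios are given on the log2 scale with a 95% interval taken from exact Clopper-Pearson bounds on the 2 counts. The interval covers counting error only. With 1 library per group there is no replicate check, and no p-value is given. A gene was called higher or lower at a ratio of 2-fold or more with at least 10 counts in 1 of the 2 libraries, and only such genes are said to have risen or fallen. Scaling by library totals in place of TMM moved all log2 ratios by -0.22 for RT over Ctrl, by 0.084 for RT + shHDAC6 over RT and by -0.13 for RT + shHDAC6 over Ctrl.

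HDAC6 itself had 3098 (Ctrl), 2383 (RT) and 2170 (RT + shHDAC6) counts. The level with the shRNA was 87.2% of that of RT alone, a log2 ratio of -0.20 (interval -0.28 to -0.11), so in this library the RNA of the targeted gene was only slightly lower. The paper measured the knockdown in T24 by qPCR and Western blotting and reports lower HDAC6 RNA and protein. Its legend for that qPCR names no irradiation, and its blot of irradiated cells used a lower dose than these libraries. Whether the cells of those measurements were the cells of this library cannot be settled here. Epithelial marker genes were all detected (6 of 6 with at least 10 counts in every library), and so were 6 of 6 mesenchymal markers. In RT over Ctrl 0 of these 12 markers passed 2-fold. In RT + shHDAC6 over RT 1 of the 6 epithelial markers was lower, the keratin gene KRT7 with 3533 (Ctrl), 3854 (RT) and 597 (RT + shHDAC6) counts (log2 ratio -2.75, interval -2.88 to -2.63), and 0 were higher. Of the mesenchymal markers CDH2 was lower (log2 ratio -1.04) and 0 were higher. Of 11 urothelial markers 5 or 6 reached 10 counts. Their summed level was 104, 79.6 and 52.3 CPM in Ctrl, RT and RT + shHDAC6. KRT20 and the uroplakin gene UPK1B were at 0 in Ctrl and in RT, and UPK3A in Ctrl and in RT + shHDAC6. TP63 and UPK1A were called lower in RT over Ctrl, and GATA3 in RT + shHDAC6 over RT (log2 ratio -1.07), where neither GATA3 nor CDH2 reached 2-fold with library totals. UPK1A had only 18, 2 and 2 counts. In RT + shHDAC6 over Ctrl 4 of the 6 urothelial markers with enough counts were lower (PPARG, TP63, GATA3 and UPK1A) and 0 higher. Of the epithelial and mesenchymal markers KRT7 and SNAI2 were lower there and 0 higher. Of 11 genes that mark immune, endothelial, stromal or liver cells 9 or 10 reached 10 counts, and their summed level was 159, 108 and 124 CPM in Ctrl, RT and RT + shHDAC6. Most of that sum was COL1A1, at 104, 71.2 and 83.4 CPM, followed by ACTA2, while CD3E, CD68 and ALB were under 0.5 CPM in each library. No gene of that list was at 0 in any library, and 0 were called higher or lower in any comparison. The part of these lists in the results was not tested.

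Both activators were expressed, and their ratios for RT over Ctrl had opposite signs. PLAU (ENSG00000122861; GRCh38 chromosome 10, 73909177 to 73917496, plus strand) had 8514 (Ctrl), 13592 (RT) and 19110 (RT + shHDAC6) counts, or 188, 405 and 546 CPM. Each library thus stood above the one before it. PLAU rose 2.16-fold in RT over Ctrl (log2 ratio 1.11, interval 1.07 to 1.15). With library totals the log2 ratio was 0.89, which is under 2-fold. In such bulk libraries a gene expressed by more of the cells cannot be told apart from more RNA in each cell. Among the 7588 genes that reached 1000 counts in either library, 3.51% had a higher log2 ratio. In RT + shHDAC6, PLAU was 1.35-fold above RT (log2 ratio 0.43, interval 0.40 to 0.46), a value exceeded by 2.82% of the 6995 genes with that depth. Against Ctrl it rose 2.91-fold (log2 ratio 1.54, interval 1.503 to 1.577). By length, 31.0% of the exons of PLAU lies opposite the non-coding gene C10orf55, which had 36, 30 and 40 counts, and the strand setting of the counting is not given in the sources used here.

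PLAT (ENSG00000104368; chromosome 8, 42174718 to 42207709, minus strand), the activator that works best on fibrin, had 1773 (Ctrl), 829 (RT) and 1072 (RT + shHDAC6) counts. The levels were 39.1, 24.7 and 30.6 CPM, so that both irradiated libraries lay under Ctrl. The log2 ratio was -0.66 (interval -0.78 to -0.54) for RT over Ctrl and 0.31 (interval 0.18 to 0.44) for RT + shHDAC6 over RT. Neither reached 2-fold. Among genes with at least 1000 counts, 3.41% had a lower log2 ratio than PLAT for RT over Ctrl.

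**Figure D1:**
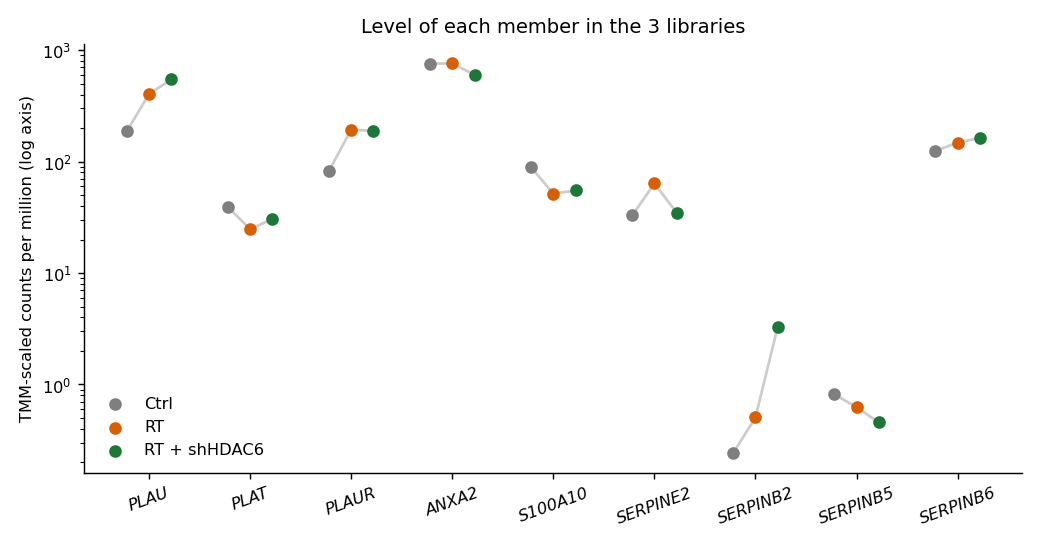
Level of each of the 9 genes in Ctrl (grey), RT (orange) and RT + shHDAC6 (green), in TMM-scaled CPM on a log axis; each point is 1 library and thin lines join the libraries of a gene. PLAU climbs from 188 to 405 and 546 CPM, SERPINE2 is highest in RT (63.7 CPM), and SERPINB2 goes from 0.243 to 3.28 CPM.

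PLAUR (ENSG00000011422; chromosome 19, 43646095 to 43670547, minus strand) encodes the receptor that holds urokinase at the surface. It had 3754 (Ctrl), 6488 (RT) and 6609 (RT + shHDAC6) counts, or 82.8, 193 and 189 CPM. The irradiated libraries were close to each other and both were above Ctrl. PLAUR rose 2.34-fold in RT over Ctrl (log2 ratio 1.22, interval 1.17 to 1.28), and the log2 ratio stayed above 1 with library totals (1.01). The log2 ratio of RT + shHDAC6 over RT was -0.035 (interval -0.085 to 0.014), and it was 0.048 with library totals. Its sign thus depended on the scaling, and a difference was not detectable. Against Ctrl, PLAUR rose in RT + shHDAC6 with a log2 ratio of 1.19 (interval 1.13 to 1.25).

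The plasminogen receptor subunits did not follow the urokinase receptor. ANXA2 (ENSG00000182718; chromosome 15, 60347134 to 60402883, minus strand), the calcium-dependent lipid-binding subunit, had the most counts of the 9 genes, 34368 (Ctrl), 25488 (RT) and 21055 (RT + shHDAC6). Its levels were 758, 760 and 601 CPM. The log2 ratio of RT over Ctrl was 0.0039 (interval -0.019 to 0.027), but it was -0.21 with library totals, -0.053 with upper quartile scaling and -0.011 after adding the counts of its pseudogenes, so no direction can be given. For RT + shHDAC6 over RT it was -0.34 (interval -0.36 to -0.31), and it stayed between -0.35 and -0.25 under the alternatives that were run. The processed pseudogene ANXA2P2 had 1343, 738 and 569 counts, and the counting could have split reads between the copies.

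S100A10 (ENSG00000197747; chromosome 1, 151982915 to 151993859, minus strand) encodes the small partner of annexin A2 whose end carries the plasminogen-binding lysine. It had 4026 (Ctrl), 1731 (RT) and 1929 (RT + shHDAC6) counts, or 88.8, 51.6 and 55.1 CPM. The highest library was Ctrl. The log2 ratio was -0.78 (interval -0.86 to -0.70) for RT over Ctrl, and 1.79% of the genes that reached 1000 counts had a lower one. With library totals it was -1.0002, past 2-fold. RT + shHDAC6 over RT gave 0.094 (interval -0.00022 to 0.19).

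**Figure D2:**
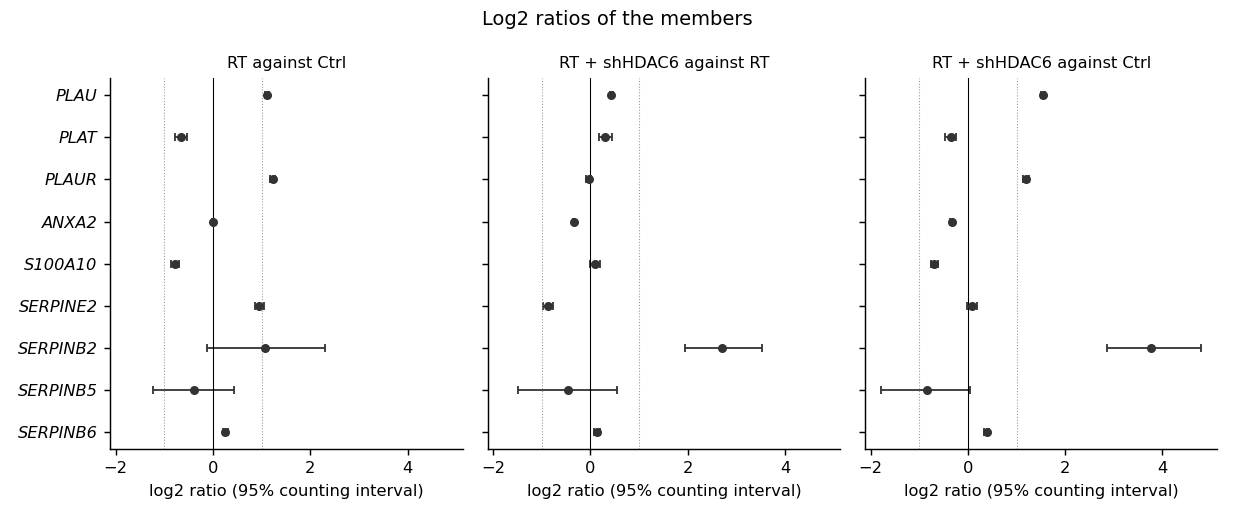
Log2 ratio of each of the 9 genes in the 3 comparisons (points) with its 95% counting interval (bars); dotted lines mark 2-fold. PLAU and PLAUR lie past 2-fold against Ctrl in both irradiated libraries, SERPINB2 lies at 2.696 for RT + shHDAC6 over RT, and SERPINE2 lies at 0.95 and then at -0.87.

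The inhibitors SERPINE2 and SERPINB2 gave the widest spread in RT + shHDAC6 over RT, where SERPINB2 had low counts. In RT over Ctrl their ratios were close to each other. SERPINE2 (ENSG00000135919; chromosome 2, 223975045 to 224039318, minus strand) encodes protease nexin-1, a secreted inhibitor of thrombin, urokinase and plasmin. It had 1490 (Ctrl), 2135 (RT) and 1220 (RT + shHDAC6) counts, or 32.9, 63.7 and 34.8 CPM. RT stood alone as the high library. The log2 ratio was 0.95 (interval 0.86 to 1.05) for RT over Ctrl and -0.87 (interval -0.97 to -0.77) for RT + shHDAC6 over RT. Both were short of 2-fold with TMM, and the first passed it with median-of-ratios scaling (1.01). Among genes of at least 1000 counts, 1.54% had a lower ratio than SERPINE2 for RT + shHDAC6 over RT. Against Ctrl the log2 ratio in RT + shHDAC6 was 0.085 (interval -0.026 to 0.19), and -0.049 with library totals. The sign thus depended on the scaling, and a difference between these libraries was not detectable.

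SERPINB2 (ENSG00000197632; chromosome 18, 63871692 to 63903888, plus strand) encodes plasminogen activator inhibitor 2, which blocks urokinase and is found both inside cells and secreted. It had 11 (Ctrl), 17 (RT) and 115 (RT + shHDAC6) counts, or 0.243, 0.507 and 3.28 CPM. RT + shHDAC6 was far above the other libraries, and all 3 levels were low. SERPINB2 rose 6.48-fold in RT + shHDAC6 over RT (log2 ratio 2.696, interval 1.95 to 3.52), and 36 of the 19013 genes with enough counts had a higher ratio. Against Ctrl it rose 13.5-fold (log2 ratio 3.76, interval 2.87 to 4.80). For RT over Ctrl the log2 ratio of 1.06 passed the 2-fold rule, but its interval of -0.12 to 2.30 included 0, so a difference was not detectable at this depth, and with library totals it was 0.85. In the annotation used here 19.96% of the exon length is shared with the gene ENSG00000289724 on the same strand, which is no row of the count table.

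SERPINB5 and SERPINB6 belong to the same clade but are not main inhibitors of the activators. SERPINB5 (ENSG00000206075; chromosome 18, 63476958 to 63505085, plus strand) encodes maspin, a serpin that does not trap proteases. It had 37 (Ctrl), 21 (RT) and 16 (RT + shHDAC6) counts, which was under 1 CPM in every library, and the intervals of all 3 log2 ratios included 0. The widest was that of RT + shHDAC6 over RT (log2 ratio -0.45, interval -1.49 to 0.55). SERPINB6 (ENSG00000124570; chromosome 6, 2948159 to 2972165, minus strand), an intracellular inhibitor of serine proteases, had 5646, 4974 and 5712 counts, or 124.5, 148 and 163 CPM. Its log2 ratio was 0.25 (interval 0.20 to 0.31) for RT over Ctrl, which was 0.035 with library totals, and 0.14 (interval 0.082 to 0.19) for RT + shHDAC6 over RT.

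SERPINB2 and SERPINB5 lie in 1 cluster of 10 SERPINB genes that spans 543 kb of chromosome 18, while SERPINB6 lies with SERPINB1 and SERPINB9 in 140 kb of chromosome 6. In the chromosome 18 cluster 6 of the 10 genes had at most 1 count in any library. SERPINB8, an inhibitor of furin at the far end of the cluster, had 608 (Ctrl), 554 (RT) and 859 (RT + shHDAC6) counts. Its log2 ratio for RT + shHDAC6 over RT was 0.57 (interval 0.41 to 0.73). SERPINB7, between SERPINB5 and SERPINB2, had 7, 13 and 17 counts. In RT + shHDAC6 over Ctrl SERPINB7 was called higher (log2 ratio 1.65, interval 0.31 to 3.17). That interval overlapped the one of SERPINB2 in the same comparison (2.87 to 4.80). SERPINB10, the nearest neighbour of SERPINB2, had 0 in each library. A count of 0 allows up to 3 counts, or 0.0718 to 0.0847 CPM relative to the unscaled library total. The ratio of SERPINB8 for RT + shHDAC6 over RT was thus smaller than that of SERPINB2, with intervals that did not overlap.

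**Figure D3:**
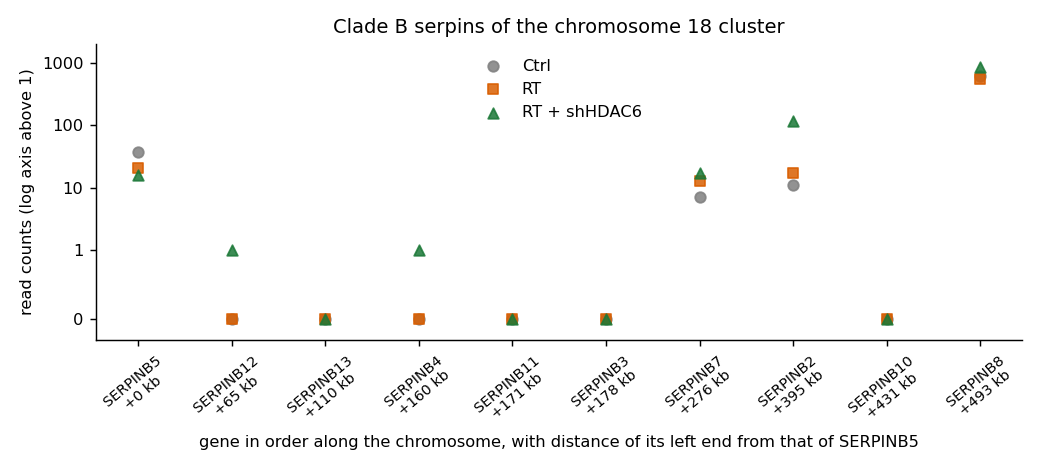
Read counts of the 10 SERPINB genes of the chromosome 18 cluster in order along the chromosome, in Ctrl (circles), RT (squares) and RT + shHDAC6 (triangles), on an axis that is logarithmic above 1. SERPINB2 stands at 115 counts in RT + shHDAC6 beside 17 in RT, and 6 of the genes are at 0 or 1 in all libraries.

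The promoters of the 4 members with the largest steps are shown to let their sequences be compared. Each line gives the 250 bases before the start site, 5′ to 3′ on the strand of the gene, from RefSeq on GRCh38.p14. Capitals mark matches on either strand to the AP-1 motif TGANTCA, the GC box GGGCGG, the TATA motif TATAAA, or the CRE or NF-kB motif. The windows are chr10:73910882-73911131 (PLAU, plus strand), chr19:43670170-43670419 (PLAUR, minus strand), chr2:224038641-224038890 (SERPINE2, minus strand) and chr18:63887455-63887704 (SERPINB2, plus strand). The start used for SERPINE2 lies 646 bases from that of the canonical GENCODE transcript, and for the other 3 genes both starts are the same.
PLAU: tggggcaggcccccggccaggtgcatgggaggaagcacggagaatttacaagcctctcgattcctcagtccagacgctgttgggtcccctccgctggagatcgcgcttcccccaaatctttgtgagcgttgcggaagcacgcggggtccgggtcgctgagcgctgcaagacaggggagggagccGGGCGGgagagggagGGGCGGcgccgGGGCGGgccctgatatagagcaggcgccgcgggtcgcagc
PLAUR: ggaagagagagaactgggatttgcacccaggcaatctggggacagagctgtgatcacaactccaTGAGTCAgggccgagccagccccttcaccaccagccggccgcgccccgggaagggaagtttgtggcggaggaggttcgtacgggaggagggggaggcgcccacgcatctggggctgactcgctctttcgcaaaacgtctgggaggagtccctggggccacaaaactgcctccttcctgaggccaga
SERPINE2: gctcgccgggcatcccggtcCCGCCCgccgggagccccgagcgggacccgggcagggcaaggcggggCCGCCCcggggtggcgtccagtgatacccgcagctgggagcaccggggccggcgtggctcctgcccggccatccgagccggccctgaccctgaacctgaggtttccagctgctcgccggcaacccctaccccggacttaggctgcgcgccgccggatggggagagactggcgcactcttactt
SERPINB2: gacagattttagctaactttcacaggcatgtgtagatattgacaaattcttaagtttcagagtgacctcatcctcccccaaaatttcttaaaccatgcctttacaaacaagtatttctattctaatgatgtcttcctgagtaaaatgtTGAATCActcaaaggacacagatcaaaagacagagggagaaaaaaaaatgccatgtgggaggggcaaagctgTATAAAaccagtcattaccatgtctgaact

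A window of 300 bases, 250 before and 50 after the start, was searched for 8 of the 9 members, with PLAT left out. For these 8 there were 13 such RefSeq windows. The counts below use 1 for each member, the one whose start lies nearest to that of the canonical transcript. An AP-1 match was found in 4 of the 8 (PLAUR, ANXA2, SERPINB2 and SERPINB5), against 7.71% of all 35116 promoters in the RefSeq table. It began 186 bases before the start in PLAUR and 102 in SERPINB2. PLAU and SERPINE2 both held GC boxes (3 and 2 matches) and no AP-1 match in these windows. GC boxes were in 6 of the 8 windows and in 45.0% of all promoters. The TATA motif was in ANXA2 and SERPINB2, where it began 31 and 30 bases before the start, and in 11.5% of all promoters. A further SERPINB6 window, not counted here, held a TATA match that began 1 base before its start. The CRE and NF-kB motifs were in none of the 8, and in 1.85% and 11.3% of all promoters. These are letter matches, and no binding was measured here.

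By the 2-fold rule, 3 of the 9 members were called higher in RT over Ctrl (PLAU, PLAUR and SERPINB2) and 0 lower. Of all 20267 genes with enough counts 4.81% were called higher and 9.17% lower. With library totals 1 member was higher (PLAUR) and 1 lower (S100A10), beside 523 higher and 2845 lower of the same 20267 genes. In RT + shHDAC6 over RT, 1 of the 9 was called higher (SERPINB2) and 0 lower, against 4.35% higher and 4.78% lower of 19013 genes. In RT + shHDAC6 over Ctrl, PLAU, PLAUR and SERPINB2 were higher and 0 lower, against 4.91% and 10.5% of 20374 genes. The median log2 ratio of the 9 members was 0.25, 0.094 and 0.085 in the 3 comparisons, and that of all genes with enough counts was -0.062, -0.0032 and -0.056. The comparisons share libraries, so their ratios are not independent. Among all calls for RT over Ctrl the share of higher ones was 34.4%, and 15.5% with library totals. It was 65.9% among genes with at least 100 counts in 1 of the 2 libraries, and 70.0% with the whole interval past 2-fold. Which direction prevailed thus depended on these settings.

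Ratios between 2 members of the same library do not depend on the scaling. PLAU had 5.71 reads for each read of SERPINE2 in Ctrl (interval 5.41 to 6.04), 6.37 in RT (interval 6.08 to 6.67) and 15.7 in RT + shHDAC6 (interval 14.8 to 16.6). Urokinase reads thus outweighed those of this inhibitor most in the library with the shRNA. The ratio of PLAU to PLAT was 4.80 in Ctrl (interval 4.56 to 5.06), 16.4 in RT (interval 15.3 to 17.6) and 17.8 in RT + shHDAC6 (interval 16.8 to 19.0), so that it differed mainly between Ctrl and the irradiated libraries. PLAU to PLAUR stayed in a narrower band, at 2.27, 2.09 and 2.89. The reads of ANXA2 for each read of S100A10 were 8.54 in Ctrl (interval 8.26 to 8.82), 14.7 in RT (interval 14.02 to 15.5) and 10.9 in RT + shHDAC6 (interval 10.4 to 11.4). SERPINE2 had 135 reads for each of SERPINB2 in Ctrl, 126 after irradiation alone and 10.6 in RT + shHDAC6. The first 2 intervals of that pair overlapped, at 75.5 to 272 and 78.3 to 216, and the last was 8.76 to 12.96.

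**Figure D4:**
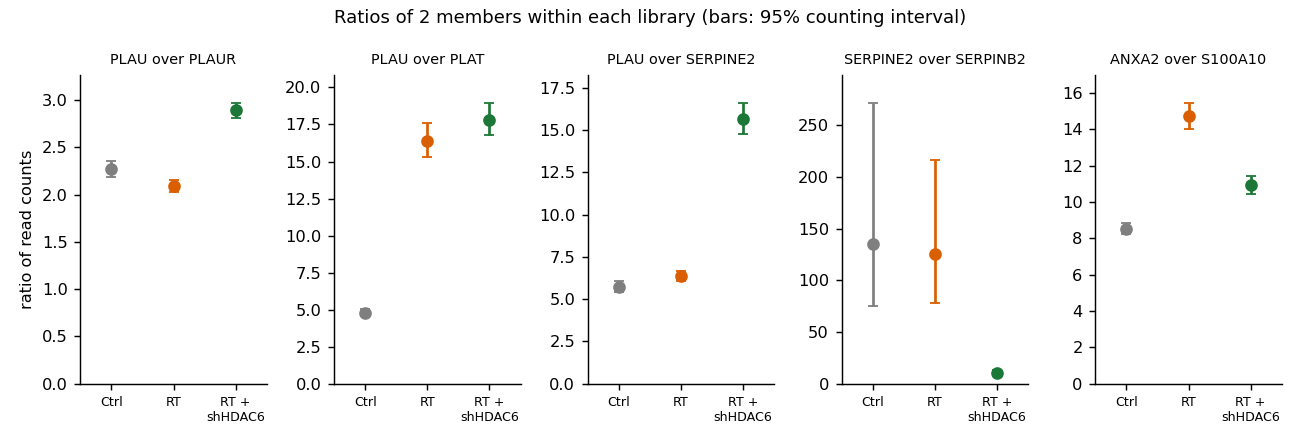
Ratio of the read counts of 2 members within each library for 5 pairs, with 95% counting intervals; every axis starts at 0. PLAU over SERPINE2 is 15.7 in RT + shHDAC6 and near 6 in the other libraries, and ANXA2 over S100A10 is highest in RT at 14.7.

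Levels of different genes were compared per kilobase of exon. On this scale the mean over the 3 libraries was 129 CPM per kilobase for PLAU, 64.4 for S100A10, 61.0 for ANXA2 and 34.8 for PLAUR. SERPINB6 followed with 11.01, SERPINE2 with 4.89, PLAT with 4.05, SERPINB2 with 0.491 and SERPINB5 with 0.169. The order at the top depended on the length used. With the canonical transcript in place of all exons, a choice made after the data were seen, ANXA2 came first (455 CPM per kilobase), followed by PLAU (162), PLAUR (113), SERPINB6 (110.5) and S100A10 (97.1), while the order of the 4 lowest genes was the same.

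The rest of the plasminogen system was described from a list of 25 genes. Plasminogen itself (PLG) had 2, 1 and 0 counts, in each library fewer than the 3 counts that a count of 0 allows. In RT over Ctrl 21 of the 25 had enough counts, of which 1 was called higher, 2 lower (SORL1 and VTN) and 18 were within 2-fold, with a median of -0.31. The first was TFPI2, a matrix-bound inhibitor of plasmin, with 2802 (Ctrl), 6309 (RT) and 5042 (RT + shHDAC6) counts (log2 ratio 1.61, interval 1.54 to 1.67). SORL1, a sorting receptor that takes up urokinase complexes, had 133, 46 and 55 counts (log2 ratio -1.10 for RT over Ctrl, interval -1.61 to -0.60). VTN, the gene of vitronectin, had 10, 3 and 5 counts, and the interval of its log2 ratio of -1.30 included 0 (-3.80 to 0.66).

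In RT + shHDAC6 over RT 20 of the 25 had enough counts, 1 fell and 0 rose, with a median of 0.042. The one that fell was SERPINI1, neuroserpin, an inhibitor of tissue-type plasminogen activator, with 543 (Ctrl), 365 (RT) and 177 (RT + shHDAC6) counts (log2 ratio -1.11, interval -1.37 to -0.84). MRC2, an endocytic collagen receptor that associates with the urokinase receptor, had 14217, 19789 and 10829 counts. Its log2 ratios were 0.91 for RT over Ctrl and -0.93 for RT + shHDAC6 over RT, both short of 2-fold, and RT was its highest library. IGF2R, which binds plasminogen and the urokinase receptor, gave 0.86 and -0.38. ENO1, a glycolytic enzyme that also serves as a plasminogen receptor, had the most counts of the list, with log2 ratios of 0.21, which is no more than the shift by library totals, and 0.064. Against Ctrl, TFPI2 was higher (log2 ratio 1.22) and SERPINI1 lower (log2 ratio -1.24) in RT + shHDAC6, and 19 of 21 genes with enough counts were within 2-fold.

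**Figure D5:**
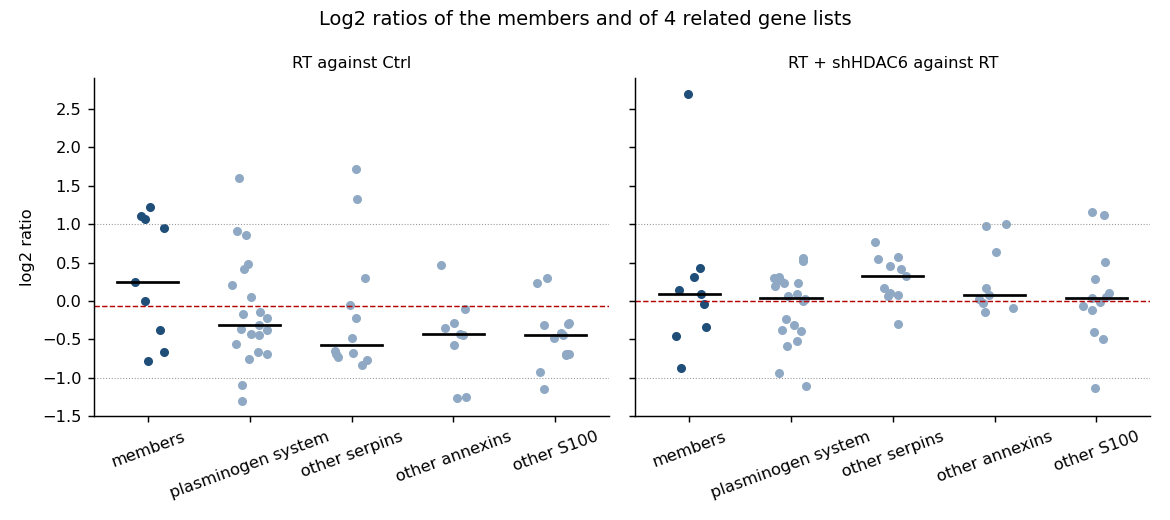
Log2 ratios of the 9 members (dark) and of the genes with enough counts of 4 related lists (light) for RT over Ctrl and RT + shHDAC6 over RT; each point is a gene, black bars are list medians, the dashed line is the median of all genes with enough counts and dotted lines mark 2-fold. The members' medians are 0.25 and 0.094, and SERPINB2 at 2.696 stands above every other point on the right.

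Of 28 other serpins, 12 had enough counts in RT over Ctrl and 11 in RT + shHDAC6 over RT. In the first comparison SERPINH1 and SERPINB7 were called higher and 0 lower, with a median of -0.57, and in the second 11 of 11 were within 2-fold, with a median of 0.32. SERPINH1, a collagen chaperone of the endoplasmic reticulum that inhibits no protease, had 2815 (Ctrl), 6829 (RT) and 5780 (RT + shHDAC6) counts (log2 ratio 1.71 for RT over Ctrl, interval 1.65 to 1.78). The interval of SERPINB7 in that comparison included 0 (log2 ratio 1.33, interval -0.10 to 2.89). SERPINA1, the gene of alpha-1 antitrypsin, had 1690, 794 and 1105 counts, with log2 ratios of -0.65 and 0.41.

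Of 11 other annexins 9 had enough counts in each comparison. In RT over Ctrl ANXA3 (87, 27 and 44 counts) and ANXA9 (39, 12 and 25) fell, 0 rose, and the median was -0.43. ANXA1, ANXA5 and ANXA6, those with the most counts, had log2 ratios of -0.44, -0.29 and -0.58, and of -0.15, -0.022 and -0.088 for RT + shHDAC6 over RT, where the value of ANXA5 is within the shift by library totals. ANXA8 had 479, 490 and 1009 counts, and its value of 0.98 (interval 0.82 to 1.14) in RT + shHDAC6 over RT was just short of 2-fold. The gap was smaller than the shift by library totals, which put ANXA8 past 2-fold. Over Ctrl ANXA8 rose in RT + shHDAC6 with 1.45 (interval 1.29 to 1.61).

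Of 16 other S100 genes 13 had enough counts. In RT over Ctrl S100A9 (45, 15 and 34 counts) fell, 0 rose and the median was -0.44, with S100A11, S100A6 and S100A16 at -0.70, -0.31 and -0.29. S100A10, at -0.78, was under that median. In RT + shHDAC6 over RT S100A9 and S100B were called higher and S100A2 lower, with a median of 0.037. S100B had 11, 6 and 14 counts, and the interval of its log2 ratio (1.16, interval -0.31 to 2.83) included 0. S100A2, a calcium-binding protein of epithelial cells, had 1073 (Ctrl), 492 (RT) and 234 (RT + shHDAC6) counts (log2 ratio -1.13, interval -1.37 to -0.91). S100A4, which also binds annexin A2, had 269, 105 and 83 counts and fell in RT + shHDAC6 over Ctrl (log2 ratio -1.32, interval -1.70 to -0.96). S100A9, S100B, SERPINB7, SERPINB10, ANXA3, ANXA9, PLG and VTN are outside the rule for named genes and were picked after their values were seen.

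The genes with the pattern most like that of 4 members were sought among 11283 other protein-coding genes that reached 100 counts in any library, by the Euclidean distance of their log2 ratios for RT over Ctrl and for RT + shHDAC6 over RT. With 3 libraries this rests on 2 ratios. Nearest to SERPINE2 were KIAA1549 (distance 0.031), SLC29A3 (0.038) and the integrin gene ITGA6 (0.055). Nearest to PLAU were PSTK (0.042), IGFBP1 (0.069) and LTB4R2 (0.074), and nearest to PLAUR were TSSC4 (0.019), URB2 (0.025) and PAXX (0.025). SERPINB2, with only 11, 17 and 115 counts, had no neighbour at such small distances. The nearest were CSF3 (0.84), with 19, 19 and 189 counts, PTX3 (0.88), with 219, 274 and 1043, and CCDC78 (0.89), with 36, 33 and 160. Both log2 ratios of CSF3 and of CCDC78 lay inside the counting intervals of SERPINB2, so these genes cannot be told apart from it at this depth. For PTX3 the ratio of RT + shHDAC6 over RT (1.87) lay outside.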

How the data were processed

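Poly(A) RNA of T24 cells was sequenced in 3 libraries, Ctrl, RT and RT + shHDAC6. The deposited values are raw read counts per Ensembl gene. The authors trimmed with cutadapt, mapped to GRCh38 with STAR and counted reads with featureCounts on GENCODE release 28. The STAR version is 2.6.1a per the labels and a later one per the paper's methods. Strand and multimapping settings of the counting are not given in the sources used here. The labels name a TruSeq stranded kit and the paper's methods another strand-specific kit. Symbols and positions came from GENCODE release 44.

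Counts were scaled jointly by TMM in edgeR 4.0.16 (R 4.3.3). Library totals, DESeq2 1.42.0 size factors and upper quartile factors were alternatives, as were other count minimums and fold thresholds. Intervals are exact Clopper-Pearson limits at 95%, computed with scipy 1.17.1, and since amplified reads that lack molecular identifiers are no independent molecules they cover counting error only. A count of 0 was set to 0.5 in ratios. The calculation was tested on simulated data. The NOISeq test of the study was not used, because without replicates its noise is drawn from each single library. The comparisons share libraries.

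The members and gene lists were chosen with earlier results of these data known. Named were the 9 members, HDAC6, and from each of 4 lists the genes with at least 100 counts and a 2-fold ratio in any comparison plus the 3 with the most counts, and the 3 genes nearest in pattern to 4 members. Other named genes were picked after their values were seen. Not every gene of the system is reported here.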

Additional observations from a re-analysis of the deposited data

How the results depend on the processing

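Of the 27 log2 ratios of the members, 24 kept their sign in every alternative that was run. The exceptions were ANXA2 for RT against Ctrl (-0.21 to 0.062), PLAUR for RT + shHDAC6 against RT (-0.045 to 0.048) and SERPINE2 for RT + shHDAC6 against Ctrl (-0.049 to 0.13). SERPINB2 for RT + shHDAC6 against RT stayed between 2.63 and 2.78. For RT against Ctrl, library totals gave 523 genes higher and 2845 lower. In RT against Ctrl, 4036 genes were higher and 5149 lower with any count accepted, 537 and 278 with at least 100 counts, 2938 and 4156 at 1.5-fold (6 members), and 403 and 173 with the whole interval past 2-fold. In RT + shHDAC6 against RT the same settings gave 3032 and 5179, 120 and 259, 1917 and 1888 (2 members), and 92 and 266. In RT + shHDAC6 against Ctrl they gave 4157 and 5309, 452 and 562, 2830 and 4182 (5 members), and 354 and 516. These counts differ because each setting tests other genes or sets another limit. At 1.5-fold they are out of 20267, 19013 and 20374 genes with enough counts in the 3 comparisons, among them all 9 members. With at least 100 counts, or with the whole interval past 2-fold, PLAU and PLAUR were the members called for RT against Ctrl. With the canonical transcript as length, chosen after seeing the data, mean levels in CPM per kilobase were 162 for PLAU, 10.3 for PLAT, 113 for PLAUR, 455 for ANXA2, 97.1 for S100A10, 19.7 for SERPINE2, 0.705 for SERPINB2, 0.245 for SERPINB5 and 110.5 for SERPINB6. No paired analysis was possible because each group had 1 library, and for the same reason no library could be left out. Depth limits SERPINB2 and SERPINB5, with at most 17 and 37 counts in Ctrl and RT.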
